A study of Mus musculus with 16 samples.

Results

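The activity-induced immediate early genes Fos, Fosb, Junb, Egr1, Egr2, Egr3, Nr4a1, Nr4a3, Arc and Npas4 were taken by name from a deposited table of 37255 gene intervals, and each of the 10 names had a row. ATAC-seq, which maps open chromatin by the places where a transposase can cut and tag the DNA, had been run on flow-sorted retinal ganglion cells, whose axons form the optic nerve, from eyes of female mice. Mice of the disease groups had EAE (experimental autoimmune encephalomyelitis, an immune attack on myelin used to model multiple sclerosis), with induction when they were 7 to 8 weeks old. The libraries were naive (control treatment, n = 5), presymptomatic EAE (n = 4), EAE at disease onset (n = 3) and EAE at disease peak (n = 4). The strain, the immunogen, the age at collection, the age of the naive mice and the gate of the sort are not given in the sources used here. Each library was made from 15000 to 50000 sorted cells with 10 cycles of PCR, and every group shared the sort and the transposition. The labels do not say whether the libraries of a group came from separate animals, so a p-value measures the spread between libraries, which may be technical.

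Immediate early genes are transcribed within minutes of a stimulus, without new protein synthesis, when calcium and growth factor signals activate the transcription factors CREB and SRF, which are already bound at their promoters and enhancers. In neurons, firing and synaptic input induce them, and the handling of tissue during dissociation can induce them as well. Fos, Fosb and Junb encode subunits of the dimeric factor AP-1, Egr1, Egr2 and Egr3 encode zinc finger factors, Nr4a1 and Nr4a3 encode orphan nuclear receptors, Npas4 encodes a neuronal bHLH-PAS factor, and Arc encodes a synaptic protein that regulates AMPA receptor trafficking.

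The deposited table did not count promoter windows. The deposited RPKM values returned 1 constant total per library when counts were divided by the span of the gene less 2000 bp (taken without its sign). This gives the length of the counted interval but not its position. The interval is taken here as the gene less 1000 bp at each end. Where a gene was shorter than 2000 bp it is placed about the middle of the gene. Whether a start or a window lay inside the interval rests on this placement, which was not tested. As deposited, the AP-1 subunit genes lay at chr7:19302696-19310226 (Fosb, minus strand), chr12:85473901-85477269 (Fos, plus) and chr8:84976909-84978748 (Junb, minus). The EGR genes, all on the plus strand, lay at chr18:34861207-34864956 (Egr1), chr10:67534453-67547493 (Egr2) and chr14:70077445-70082613 (Egr3), and the NR4A genes, also on the plus strand, at chr15:101254213-101274795 (Nr4a1) and chr4:48044889-48086447 (Nr4a3). Arc lay at chr15:74669081-74672570 and Npas4 at chr19:4984353-5001929, both on the minus strand. How much of a gene was counted differed among the 10. Junb, with a span of 1840 bp, kept a counted interval of 160 bp, and Fos and Arc kept 1369 and 1490 bp. Nr4a3, with a span of 41559 bp, kept 39559 bp. The annotation merged several transcripts of Egr2, Nr4a1 and Npas4 into long spans of 13041, 20583 and 17577 bp. If the deposited coordinates are read as mouse build GRCm38.p6, these were 3 of the 7 members with a start in the RefSeq promoter table, and the 3 with such a start inside the counted interval: Egr2 had 5 there, and Nr4a1 and Npas4 had 1 each. The listed starts of Nr4a3, Fosb, Junb and Fos lay 584, 819, 840 and 1011 bp outside it. The build was not named in the sources used here, and the starts of the table were equal to those of RefSeq for 70.5% of the gene names that matched.

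**Figure D1:**
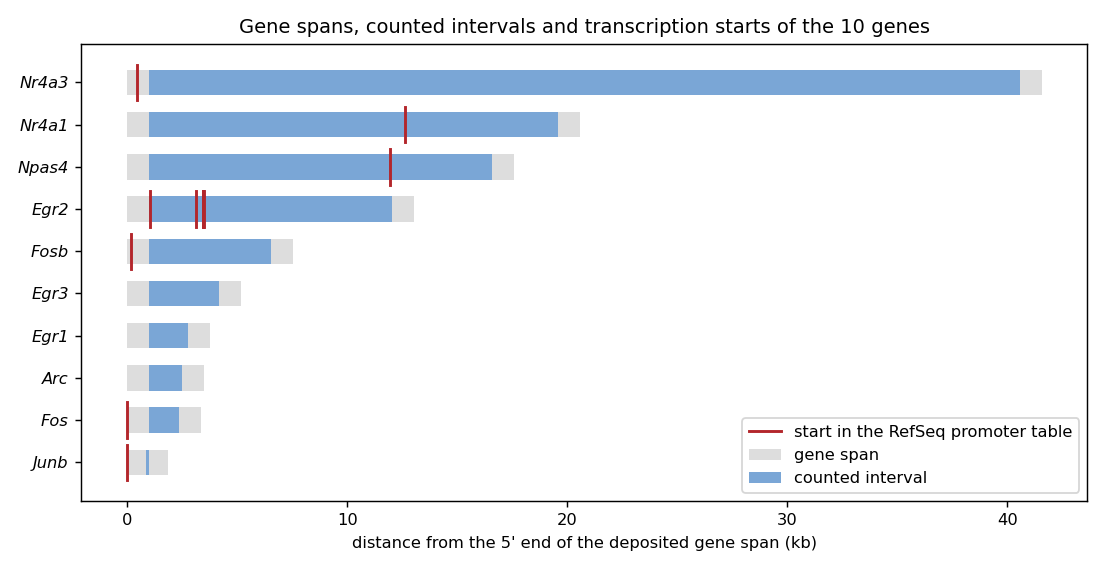
Map of the 10 genes drawn from the 5' end of the deposited span, in kb, with the gene span in grey, the counted interval in blue and the starts listed in the RefSeq promoter table as red lines. With the interval placed 1000 bp in from each end, the red lines fall within the blue bar for Egr2, Nr4a1 and Npas4.

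Promoters are shown to give the sequence context of the counted and uncounted starts. The RefSeq promoter table (GRCm38.p6), with windows of 300 bases from 250 before to 50 after each start, held 7 of the 10 genes in 11 windows; Egr1, Egr3 and Arc were not among them. The first 3 windows lay inside the counted intervals: Npas4 at chr19:4989922-4990221 on the minus strand, Nr4a1 at chr15:101266596-101266895 on the plus strand, and the most downstream Egr2 start at chr10:67537680-67537979 on the plus strand. The windows of Fos, at chr12:85473640-85473939 on the plus strand, and Fosb, at chr7:19309996-19310295 on the minus strand, lay outside. Capitals mark TGACG or its reverse complement CGTCA, the core of the cAMP response element (CRE) that CREB binds, and in Egr2 also a CArG box, the sequence that SRF binds.
Npas4: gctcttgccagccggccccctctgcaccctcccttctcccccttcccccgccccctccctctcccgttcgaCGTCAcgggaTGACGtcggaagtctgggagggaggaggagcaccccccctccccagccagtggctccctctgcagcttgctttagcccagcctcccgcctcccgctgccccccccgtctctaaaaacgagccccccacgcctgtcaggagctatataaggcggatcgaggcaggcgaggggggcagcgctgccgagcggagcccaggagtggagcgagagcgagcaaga
Nr4a1: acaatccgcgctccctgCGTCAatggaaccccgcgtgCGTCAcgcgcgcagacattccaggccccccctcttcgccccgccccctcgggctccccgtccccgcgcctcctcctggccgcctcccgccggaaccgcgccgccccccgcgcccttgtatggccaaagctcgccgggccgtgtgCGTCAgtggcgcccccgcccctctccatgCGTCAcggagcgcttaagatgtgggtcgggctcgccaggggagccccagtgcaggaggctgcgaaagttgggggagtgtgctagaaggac
Egr2: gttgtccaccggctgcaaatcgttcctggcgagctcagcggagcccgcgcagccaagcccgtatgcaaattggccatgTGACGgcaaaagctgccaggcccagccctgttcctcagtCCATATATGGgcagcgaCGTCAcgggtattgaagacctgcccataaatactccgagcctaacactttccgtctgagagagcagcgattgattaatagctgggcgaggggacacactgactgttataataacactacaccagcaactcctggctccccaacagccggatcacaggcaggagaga
Fos: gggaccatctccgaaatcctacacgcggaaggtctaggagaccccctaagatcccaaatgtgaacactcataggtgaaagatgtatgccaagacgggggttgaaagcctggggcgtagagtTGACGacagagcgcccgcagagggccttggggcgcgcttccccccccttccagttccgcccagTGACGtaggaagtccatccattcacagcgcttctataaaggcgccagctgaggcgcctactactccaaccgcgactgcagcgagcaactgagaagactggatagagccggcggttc
Fosb: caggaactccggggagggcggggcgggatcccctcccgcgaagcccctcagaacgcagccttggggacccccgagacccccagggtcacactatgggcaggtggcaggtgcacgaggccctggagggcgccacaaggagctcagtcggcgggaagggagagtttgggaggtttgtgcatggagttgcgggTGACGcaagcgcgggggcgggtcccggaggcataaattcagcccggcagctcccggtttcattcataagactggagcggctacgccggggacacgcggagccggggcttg

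Both strands were searched. The core TGACG was present in all 7 genes, against 23.0% of the 27025 genes with windows. By window it was present in 9 of 11, against 20.8% of the 32851 windows in the table. The Egr2 windows of the starts at 67537869, 67537870 and 67537930 overlap and hold the same 2 matches, so the 9 are not independent. The windows of the 7 genes were rich in G and C, at 56.0% to 72.3% against a median of 52.7%, and among the 13248 windows of at least 56.0% the core was present in 30.4%. The full palindrome TGACGTCA, which contains the core, was found in 0 of the 7 genes (1.79% of all windows). The CArG box was present in Egr2 alone (1.63%), and the EGR motif GCGNGGGCG in Fosb and Nr4a1 (5.55%). The AP-1 motif TGANTCA was found in 0 of the 7 (7.81%), and TATAAA in Fos and Junb (13.6%). These are matches of letters within 300 bases, and binding was not measured. Sequence farther than 250 bases before a start was not searched, nor was any of Egr1, Egr3 or Arc.

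Across libraries, nuclear reads in intervals ranged from 1.58 to 15.1 M (megareads), with 1.58 to 3.70 M at peak against 4.67 to 15.1 M in naive. Mitochondrial intervals took 8.36% to 64.7% of interval reads. The lowest value was that of onset replicate 3 alone, and the next lowest was 34.4%, in presymptomatic replicate 2. Onset replicate 3 also had the highest TMM scaling factor, at 2.02. Of the labelled cell type, the 24 ganglion cell markers summed to 735 to 997 reads per M nuclear reads in naive, 828 to 1014 in presymptomatic, 767 to 926 at onset and 940 to 1317 at peak, and none of them was at 0 in every library. Their median read density was 1.05 reads per kb and M nuclear reads, against 0.626 for all genes. It was 1.25 for rod markers, 1.11 for amacrine and bipolar markers, 0.921 for Muller glia and astrocyte markers and 0.466 for markers of microglia and macrophages. By this measure ganglion cell markers thus stood below those of rods and of amacrine and bipolar cells. The 17 measured rod markers summed to 641 to 1327 reads per M at onset, against 364 to 629 in naive, so that onset stood above naive in every library. In bulk samples, fewer cells of a type and less signal per cell cannot be told apart.

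Several of the immediate early genes were among the genes with the densest reads. Levels are compared here as reads per kb of counted interval and M nuclear reads, as the mean ± SD of 16 libraries. Of the 9 genes with a counted interval of at least 500 bp, 5 lay above the 90th percentile of the 35258 genes ranked. Fosb, an AP-1 subunit whose short splice form accumulates with repeated stimulation, had the highest density of the 10, at 10.7 ± 5.14, and stood at the 99.2 percentile, with 30.9% of the 23373 reads counted over the 10 genes. Among the genes of similar counted length it stood at the 99.8 percentile. Egr1, a zinc finger factor of early response in most cell types, followed at 3.81 ± 2.13 (97.4 percentile, but 91.9 among genes of similar counted length). Fos, the founding AP-1 subunit, had 3.25 ± 1.71 (96.9 percentile, but 91.5 among genes of similar counted length). Egr2, better known for its role in myelinating Schwann cells, had 2.98 ± 0.783 (96.6 percentile, and 98.0 among genes of similar counted length). Fosb stood apart from the others: it exceeded Egr1, the next in order, in 16 of 16 libraries.

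Npas4, which is induced by calcium entry in neurons, averaged 2.01 ± 0.757 (94.1 percentile), and the nuclear receptor gene Nr4a1 1.44 ± 0.629 (89.6 percentile). The remaining genes were nearer the middle of the ranking. Arc averaged 0.940 ± 0.864 (75.1 percentile), Nr4a3 0.886 ± 0.202 (72.1 percentile) and Egr3 0.572 ± 0.316 (43.6 percentile). Junb was not ranked: its 160 bp interval held 59 reads over the 16 libraries and 0 in 3 of them. In the order of means, neighbours were set against each other by two-sided exact permutation tests paired by library, adjusted over 8 pairs. The order, and with it the pairs and their direction, came from the same densities that were tested. The libraries were pooled over the stages. The p-values therefore describe how steadily 2 genes kept their order across these libraries and are no independent evidence for that order. Fosb above Egr1 had an adjusted p = 0.000244, from the smallest p that 16 pairs can give. Egr2 exceeded Npas4 in 13 of 16 libraries (exact permutation test, adjusted p = 0.00122), Npas4 exceeded Nr4a1 in 14 of 16 (exact, adjusted p = 0.00165) and Nr4a3 exceeded Egr3 in 13 of 16 (exact, adjusted p = 0.00165). The neighbours that did not differ beyond their spread were Egr1 and Fos (exact, adjusted p = 0.304), Fos and Egr2 (exact, adjusted p = 0.610), Nr4a1 and Arc (exact, adjusted p = 0.0675) and Arc and Nr4a3 (exact, adjusted p = 0.942). Arc had the higher mean but the higher value in 4 of 16 libraries, its mean being raised by peak replicate 2. Genes with a start inside the counted interval had a median density of 0.776 (n = 5050), against 0.601 for those without (n = 17644), and the part of this in the levels of Egr2, Npas4 and Nr4a1 was not tested.

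**Figure D2:**
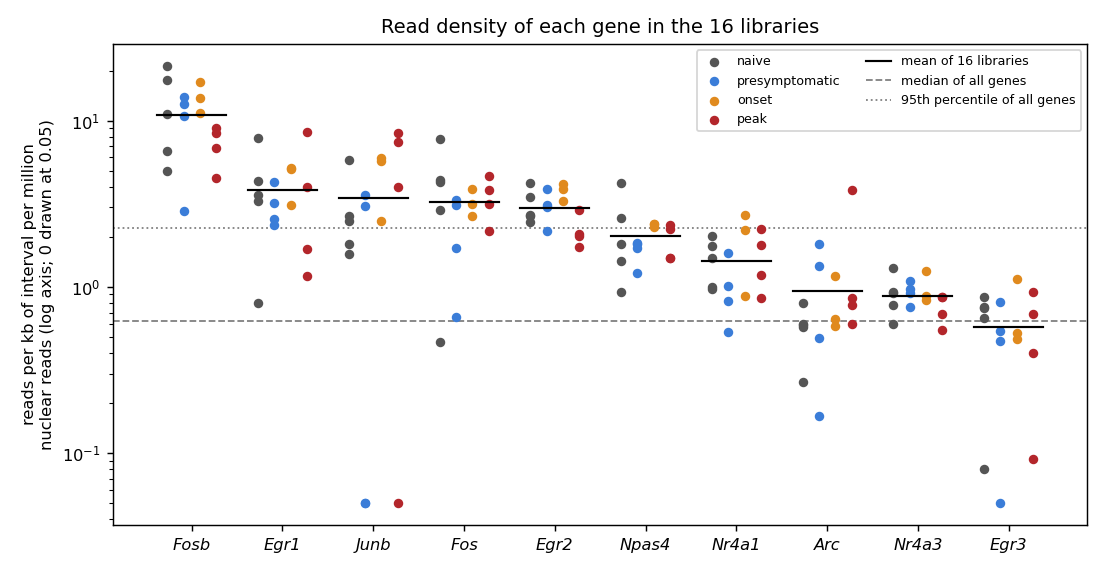
Read density of each gene in each of the 16 libraries, in reads per kb of counted interval and M nuclear reads on a log axis, coloured by stage, with black bars at the mean; grey lines mark the median (0.626) and the 95th percentile (2.24) of all genes. The mean of Fosb is 10.7 and that of Egr3 is 0.572, close to the median of all genes; zeros are drawn at the bottom of the axis.

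The question the design puts to these genes is whether their accessibility moved with the stage of EAE. No member passed the test in any comparison of stages. The members were tested with all 29902 genes that passed a filter on low counts, by edgeR's quasi-likelihood test with Benjamini-Hochberg adjustment over all of them; 9 of the 10 passed the filter and Junb did not. Against naive, 0 of 9 members and 0% of all genes tested were called at an adjusted p of 0.05 in presymptomatic, at onset or at peak, and the adjusted p of each member was 1.00. At an unadjusted p under 0.05 there were 0, 0 and 2 members in presymptomatic, onset and peak, against 1.16%, 4.95% and 3.61% of all genes. DESeq2 called 0, 0 and 1 genes and voom with quality weights 0 in each, members not among them. The F test over the 3 comparisons called 0 genes, with 0 members and 3.16% of all genes at an unadjusted p under 0.05. The 3 comparisons share the naive libraries.

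None of the members' fold changes passed the test, and their medians depended on single libraries. In presymptomatic the median log2 fold change against naive was -0.35, with 1 of 9 higher, against a median of -0.06 and 41.6% higher over all genes. It was -0.08 without presymptomatic replicate 4, -0.17 without naive replicate 2, -0.62 without naive replicate 3 and -0.06 without naive replicate 5. At onset the median was 0.13, with 8 of 9 higher, against -0.01 and 48.6%. It turned to -0.05, with 3 of 9 higher, without naive replicate 3, and was 0.07 without naive replicate 1 or 4, 0.25 without naive replicate 2 and 0.35 without naive replicate 5. At peak the median was -0.27, with 1 of 9 higher, against -0.03 and 47.1%. It was -0.15 without peak replicate 1, -0.42 without peak replicate 2, -0.45 without naive replicate 3 and -0.08 without naive replicate 5. The standard errors of single members ranged from 0.24 to 0.82 across these comparisons. Changes within such errors were not detectable with these libraries, and changes well beyond them also went uncalled. Fosb and Egr2 at peak, at -0.84 ± 0.37 and -0.55 ± 0.26, did not pass the test. For no member did the libraries of a stage and of naive separate without overlap; over all genes 0.365% lay wholly higher and 0.482% wholly lower in presymptomatic, 1.6% and 0.936% at onset, and 0.502% and 0.475% at peak.

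**Figure D3:**
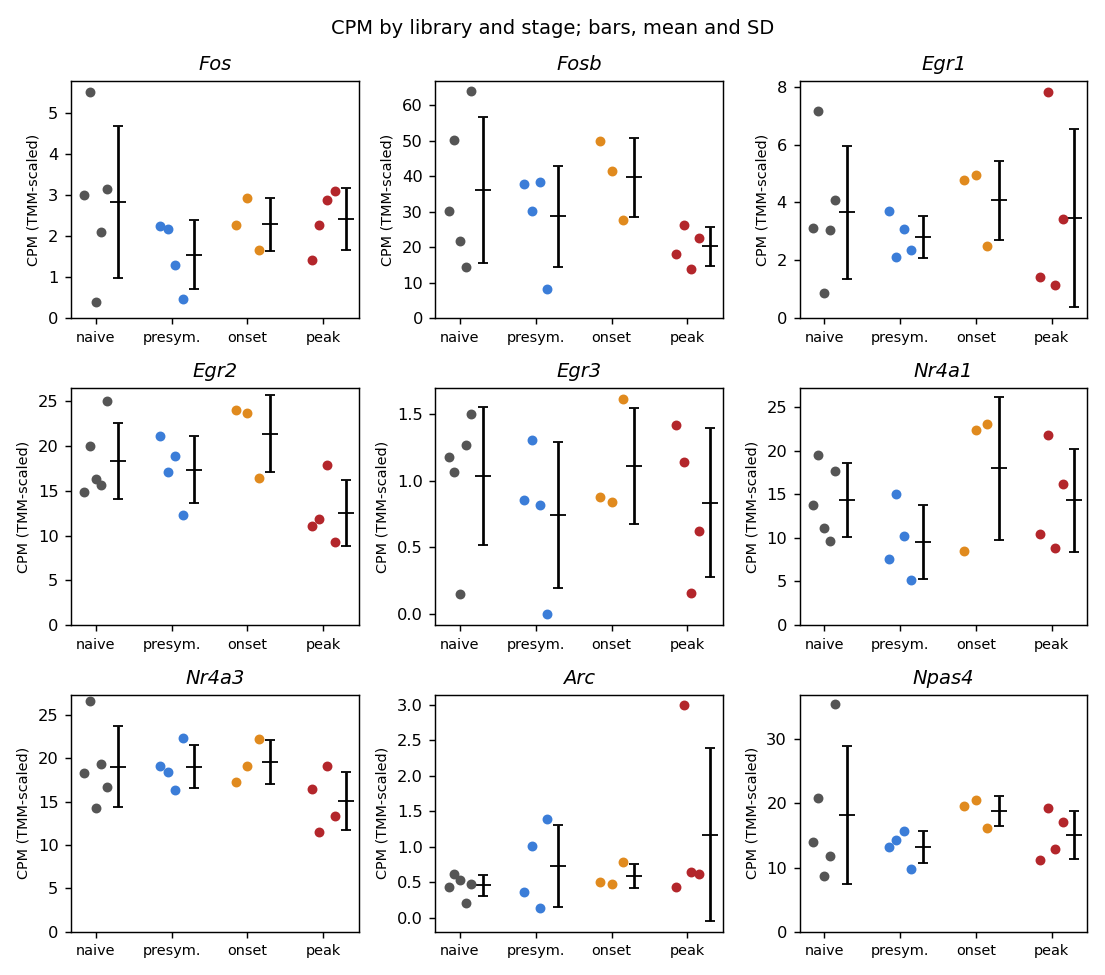
TMM-scaled counts-per-million of the 9 tested genes in each library, by stage in the order naive, presymptomatic (presym.), onset and peak; points are libraries and bars are group means ± SD. The libraries of each stage overlap those of naive for every gene.

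**Figure D4:**
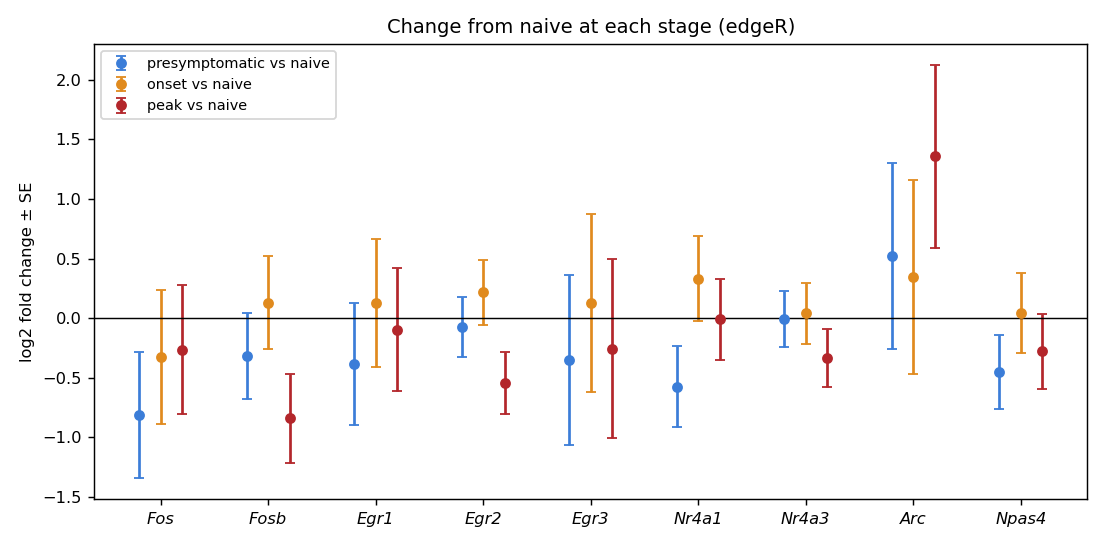
Log2 fold change of each tested gene in presymptomatic, onset and peak against naive, with bars of 1 standard error from edgeR's quasi-likelihood fit. Fosb and Egr2 at peak lie lowest relative to their errors, at -0.84 ± 0.37 and -0.55 ± 0.26.

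The 3 genes for AP-1 subunits held very different numbers of reads, with 7217 over the 16 libraries for Fosb, 530 for Fos and 59 for Junb. Their counted intervals differed as well, at 5531, 1369 and 160 bp. The values below are TMM-scaled counts-per-million (CPM) of all interval reads. Fosb had 30.1, 50.1, 21.8, 14.5 and 64.0 CPM in the naive libraries, 37.9, 30.2, 38.4 and 8.15 in presymptomatic, 49.8, 41.3 and 27.8 at onset, and 18.1, 26.4, 13.8 and 22.7 at peak. The naive libraries alone spanned 14.5 to 64.0 CPM, and the libraries below that range were presymptomatic replicate 4 and peak replicate 3. At peak Fosb averaged 20.3 ± 5.46 CPM (SD, n = 4), against 36.1 ± 20.5 CPM in the naive group (SD, n = 5), and its log2 fold change was -0.84 ± 0.37 (SE; unadjusted p = 0.0330 and adjusted p = 1.00 by edgeR). Its changes were -0.32 ± 0.36 in presymptomatic and 0.13 ± 0.39 at onset.

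Fos had 2.99, 5.52, 0.383, 2.11 and 3.15 CPM in naive, 2.25, 2.18, 1.29 and 0.466 in presymptomatic, 2.26, 2.93 and 1.66 at onset, and 1.42, 2.28, 2.89 and 3.11 at peak. Naive held both the highest and the lowest library, replicates 2 and 3, and the 3 stages lay between them. Its log2 fold changes against naive were -0.81 ± 0.53 in presymptomatic, -0.33 ± 0.56 at onset and -0.27 ± 0.54 at peak. Junb, which forms AP-1 with Fos proteins, had 2, 14, 2, 2 and 2 reads in naive, 4, 4, 0 and 0 in presymptomatic, 4, 6 and 9 at onset, and 4, 5, 0 and 1 at peak. With 14 reads or fewer in any library, a change in Junb was not detectable at this depth.

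Among the EGR zinc finger genes, Egr2 varied least between libraries. Egr2 had 14.9, 19.99, 16.3, 15.6 and 25.1 CPM in naive, 21.1, 17.04, 18.9 and 12.3 in presymptomatic, 24.0, 23.7 and 16.4 at onset, and 11.1, 11.8, 17.8 and 9.33 at peak. Peak held the 3 lowest libraries of the 16, while peak replicate 3 lay above the naive median. Egr2 averaged 12.5 ± 3.70 CPM at peak (SD, n = 4) and 18.4 ± 4.23 CPM in the naive libraries (SD, n = 5), for a log2 fold change of -0.55 ± 0.26 (unadjusted p = 0.0451 and adjusted p = 1.00 by edgeR). As placed here, the counted intervals of Egr2 and of Ado, a neighbour on the opposite strand, overlapped by 983 bp. How reads there were assigned is not given in the sources used here. Ado held 271 reads in all, against 3812 for Egr2.

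Egr1 had 3.10, 7.17, 0.843, 3.06 and 4.10 CPM in naive, 3.71, 2.10, 3.06 and 2.33 in presymptomatic, 4.77, 4.95 and 2.49 at onset, and 1.42, 7.84, 1.12 and 3.42 at peak. The highest library was peak replicate 2 and the lowest naive replicate 3. Its log2 fold changes were -0.39 ± 0.51 in presymptomatic, 0.13 ± 0.54 at onset and -0.10 ± 0.52 at peak, and without peak replicate 2 the fitted value at peak was -0.99. Egr3, which acts in muscle spindle and neuronal development, had 1.18, 1.06, 0.153, 1.27 and 1.498 CPM in naive, 0.851, 1.31, 0.816 and 0 in presymptomatic, 0.879, 0.843 and 1.61 at onset, and 1.42, 1.14, 0.161 and 0.622 at peak. The groups overlapped, and the log2 fold changes of -0.35 ± 0.71, 0.13 ± 0.75 and -0.26 ± 0.75 in presymptomatic, onset and peak were smaller than their errors.

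Of the nuclear receptor genes, Nr4a3 varied less between libraries, with a coefficient of variation of its density of 22.8%, against 43.8% for Nr4a1. Nr4a1, also known as Nur77, had 13.8, 19.5, 11.2, 9.59 and 17.7 CPM in naive, 7.53, 15.1, 10.3 and 5.12 in presymptomatic, 8.54, 22.4 and 23.0 at onset, and 10.5, 21.8, 8.83 and 16.2 at peak. Presymptomatic held the 2 lowest libraries and onset the 2 highest. The log2 fold changes against naive were -0.58 ± 0.34 in presymptomatic, 0.33 ± 0.36 at onset and -0.01 ± 0.34 at peak. Nr4a3, also known as Nor1, had 18.3, 26.6, 14.2, 19.4 and 16.7 CPM in naive, 19.1, 18.4, 16.3 and 22.4 in presymptomatic, 17.3, 19.1 and 22.3 at onset, and 16.4, 11.5, 19.1 and 13.4 at peak. Its log2 fold changes of -0.01 ± 0.24, 0.04 ± 0.26 and -0.33 ± 0.24 in presymptomatic, onset and peak were each under 2 standard errors from 0.

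Of the neuronal genes, Npas4 held far more reads than Arc, with 3523 against 129 over the 16 libraries. Their counted intervals were 15577 and 1490 bp. Npas4 had 13.996, 20.9, 8.73, 11.8 and 35.5 CPM in naive, 13.2, 14.3, 15.6 and 9.78 in presymptomatic, 19.6, 20.6 and 16.2 at onset, and 11.2, 19.2, 12.8 and 17.1 at peak. Naive replicate 5 stood alone at the top, and the naive mean of 18.2 ± 10.7 CPM (SD, n = 5) became 13.9 ± 5.17 without it (n = 4). The log2 fold changes were -0.45 ± 0.31 in presymptomatic, 0.04 ± 0.33 at onset and -0.28 ± 0.32 at peak. Arc had 0.427, 0.617, 0.536, 0.211 and 0.473 CPM in naive, 0.365, 1.02, 0.136 and 1.40 in presymptomatic, 0.502, 0.476 and 0.783 at onset, and 0.425, 2.99, 0.642 and 0.622 at peak. The value of 2.99 in peak replicate 2 rested on 21 reads and the next highest at peak was 0.642. Arc had the highest fitted change of the 9 at peak, a log2 fold change of 1.36 ± 0.77 (unadjusted p = 0.0892 and adjusted p = 1.00 by edgeR), and without peak replicate 2 the fitted value was 0.26.

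Between stages, 0 of 9 members and 0% of all genes were called. In onset against presymptomatic, 1 of 9 members and 4.13% of all genes had an unadjusted p under 0.05: Nr4a1 averaged 17.99 ± 8.19 CPM at onset (SD, n = 3) and 9.50 ± 4.27 CPM in presymptomatic (SD, n = 4), a log2 fold change of 0.91 ± 0.38 (unadjusted p = 0.0226 and adjusted p = 1.00 by edgeR). The groups of Nr4a1 overlapped. Npas4 was the 1 member whose libraries did not overlap, at 16.2 to 20.6 CPM at onset and 9.78 to 15.6 CPM in presymptomatic, with a log2 fold change of 0.49 ± 0.35 (adjusted p = 1.00 by edgeR), and 5.38% of all genes lay wholly higher and 4.69% wholly lower at onset. The median over the 9 members was 0.48, with 8 higher, against 0.03 and 53.3% higher over all genes; without presymptomatic replicate 4 it was 0.22.

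In peak against onset, 2 of 9 members and 6.65% of all genes had an unadjusted p under 0.05. Fosb, at 13.8 to 26.4 CPM at peak and 27.8 to 49.8 CPM at onset, did not overlap and had a log2 fold change of -0.97 ± 0.42 (unadjusted p = 0.0271 and adjusted p = 0.737 by edgeR); 4.18% of all genes lay wholly lower at peak and 2.56% wholly higher. Egr2 had a log2 fold change of -0.76 ± 0.29 (unadjusted p = 0.0138 and adjusted p = 0.737 by edgeR), with peak replicate 3, at 17.8 CPM, above onset replicate 3, at 16.4 CPM. The median over the members was -0.34, with 2 of 9 higher, against 0.03 and 52.1% over all genes, and it was -0.21, -0.57 and -0.17 without peak replicates 1, 2 and 3 in turn. In peak against presymptomatic, 0 members and 3.41% of all genes had an unadjusted p under 0.05, the groups of every member overlapped (1.51% of all genes lay wholly higher and 1.21% wholly lower), and 6 of 9 were higher with a median of 0.17, against 53.3% and 0.03. That median turned to -0.21 without peak replicate 2 and to -0.13 with library totals in place of TMM, each with 3 of 9 higher. It was 0.28 without peak replicate 1, 0.43 without peak replicate 3, 0.26 without presymptomatic replicate 3 and 0.05 without presymptomatic replicate 4.

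The values of the cell type markers in the same comparisons are given beside those of the members. At onset, 17 of 17 tested rod markers were higher than in naive, against 48.6% of all genes, at a median of 0.86 on the log2 scale. Of these rod markers 11 had an unadjusted p under 0.05 by edgeR, against 4.95% of all genes, and none was called. In peak against onset their median was -0.81, with 1 of 17 higher, against 52.1% of all genes. Ganglion cell markers had medians of -0.07 at onset and 0.25 at peak against naive. Whether the makeup of the sorted cells has a part in the values of the immediate early genes was not tested.

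Summed over the 10 genes, reads per M nuclear reads were close together at onset and wide in naive. The closeness was that of the sum and not of each member. Between onset replicates 1 and 3 the density of Fosb fell from 17.2 to 11.0 while that of Nr4a1 rose from 0.875 to 2.72. Genes with many reads, such as Fosb, weigh most in the sum. The sums were 198, 293, 123, 147 and 311 in naive, 214, 200.2, 191 and 119 in presymptomatic, 244, 248 and 247 at onset, and 151, 200.4, 139 and 177 at peak. Naive held the 2 highest sums, and its lowest was below every sum but that of presymptomatic replicate 4; the groups averaged 214 ± 84.5 in naive, 181 ± 42.3 in presymptomatic, 246.5 ± 2.10 at onset and 167 ± 27.3 at peak (SD, n = 5, 4, 3 and 4).

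The other genes of the pathway were counted from lists chosen with earlier results of these data known. None was called in any stage comparison, against 0% of all genes, by edgeR's quasi-likelihood test with Benjamini-Hochberg adjustment. Over all genes tested, 41.6%, 48.6% and 47.1% were higher in presymptomatic, onset and peak than in naive. Their medians were -0.06, -0.01 and -0.03. Of the other AP-1, EGR and NR4A family genes, 11 of 12 were tested, and 5, 9 and 6 were higher in presymptomatic, onset and peak than in naive, with median log2 fold changes of -0.14, 0.13 and 0.05. Among them Jund, a constitutive AP-1 subunit, had 0.57 ± 0.32 at onset, and Jun, the AP-1 partner of Fos, had -0.53 ± 0.32 at peak. Of 24 upstream regulators, which include CREB coactivators and SRF partners, 8, 18 and 9 were higher, with medians of -0.11, 0.14 and -0.05. At an unadjusted p under 0.05 by edgeR there were 0, 1 and 1 of the 24, against 1.16%, 4.95% and 3.61% of all genes. The CREB coactivator gene Crtc1 averaged 29.3 ± 5.64 CPM at onset (SD, n = 3) and 19.4 ± 6.06 CPM in the naive libraries (SD, n = 5), for a log2 fold change of 0.59 ± 0.28 (unadjusted p = 0.0406, adjusted p = 0.972). Crem, a CREB-related factor whose short product ICER represses CRE-driven genes, averaged 25.0 ± 2.94 CPM at peak (SD, n = 4) and 35.8 ± 11.8 CPM in naive, a log2 fold change of -0.52 ± 0.23 (unadjusted p = 0.0336, adjusted p = 1.00).

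Of 30 other rapid response genes 24 were tested, and 9, 13 and 7 were higher in presymptomatic, onset and peak than in naive, with medians of -0.08, 0.14 and -0.23. At an unadjusted p under 0.05 by edgeR there were 0, 1 and 0 of the 24, against 1.16%, 4.95% and 3.61% of all genes. The clock gene Per1, which is also induced by light and cAMP, averaged 28.8 ± 3.78 CPM at onset and 17.4 ± 5.93 CPM in naive, a log2 fold change of 0.72 ± 0.30 (unadjusted p = 0.0245 and adjusted p = 0.972 by edgeR). Sik1, a kinase that phosphorylates CREB coactivators, had 1.02 ± 0.50 at onset. Of 24 effector genes regulated by activity 21 were tested, and 9, 13 and 5 were higher, with medians of -0.04, 0.08 and -0.11. Bdnf, a neurotrophin released by active neurons, averaged 63.3 ± 18.1 CPM at peak and 88.2 ± 27.4 CPM in naive, a log2 fold change of -0.48 ± 0.26, and Homer1, a postsynaptic scaffold gene, had -0.42 ± 0.21 in presymptomatic. Of 12 heat shock genes, which dissociation can also induce, 7 were tested, with 2, 3 and 3 higher and medians of -0.25, -0.04 and -0.11. Of the other family genes, the effectors and the heat shock genes, 0 had an unadjusted p under 0.05 by edgeR in any stage against naive. As levels, the median read density was 2.01 for the members and 1.87 for the other rapid response genes, against 1.16 for effectors, 0.776 for the other family genes, 0.763 for upstream regulators and 0.528 for heat shock genes.

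Within stages, the members were set against another measure of the libraries, the share of nuclear reads in 1457 olfactory and vomeronasal receptor gene intervals, genes known for their use in sensory neurons of the nose. The share was 0.279%, 0.201%, 0.580%, 0.511% and 0.228% in naive, 0.310%, 0.405%, 0.364% and 0.379% in presymptomatic, 0.222%, 0.289% and 0.212% at onset, and 0.295%, 0.290%, 0.508% and 0.246% at peak. Presymptomatic and onset libraries did not overlap in it. The share was taken because earlier results of these data had shown that it follows the main axis of variation. Slope calls over many genes could thus be foreseen. The p-values of the slope are no independent evidence for that axis. In a fit of stage means and 1 slope on the log2 share, each of the 9 tested members had a negative slope, with a median of -0.77 in log2 CPM per doubling of the share, against a median of -0.08 over all genes, of which 44.5% had a positive slope. Members called lower with the share were 3 of 9, against 6.74% of all genes called lower and 11.1% called higher.

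The 3 genes whose slope was called were Fosb, Npas4 and Egr1. Fosb had -0.99 ± 0.25 per doubling (SE; adjusted p = 0.00476 by edgeR), Npas4 -0.77 ± 0.23 (adjusted p = 0.0172 by edgeR) and Egr1 -1.25 ± 0.41 (adjusted p = 0.0300 by edgeR). In naive, replicates 3 and 4, with the highest shares, had 21.8 and 14.5 CPM of Fosb, and replicates 2 and 5, with the lowest, had 50.1 and 64.0. Not called were Fos at -0.92 ± 0.45 (adjusted p = 0.159), Egr3 at -0.98 ± 0.68 (adjusted p = 0.348), Nr4a1 at -0.50 ± 0.27 (adjusted p = 0.197; called with library totals, at -0.90 with an adjusted p = 0.0461), Arc at -0.34 ± 0.71 (adjusted p = 0.797), Nr4a3 at -0.11 ± 0.20 (adjusted p = 0.743) and Egr2 at -0.04 ± 0.21 (adjusted p = 0.932). The slope rested on the libraries with the highest shares: without naive replicates 3 and 4 and peak replicate 3, left out as an alternative chosen after seeing the data, 0 genes were called, and Fosb had -0.79, Egr1 -0.71 and Npas4 -0.31 (adjusted p between 0.991 and 0.998). Egr1 lost its call when naive replicate 2 was left out (adjusted p = 0.149), and likewise for naive replicate 3 (adjusted p = 0.220) and peak replicate 3 (adjusted p = 0.104). Npas4 lost its call without naive replicate 3 (adjusted p = 0.172) and without naive replicate 5 (adjusted p = 0.103). Fosb remained called when any single library was left out. What the share measures was not tested.

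**Figure D5:**
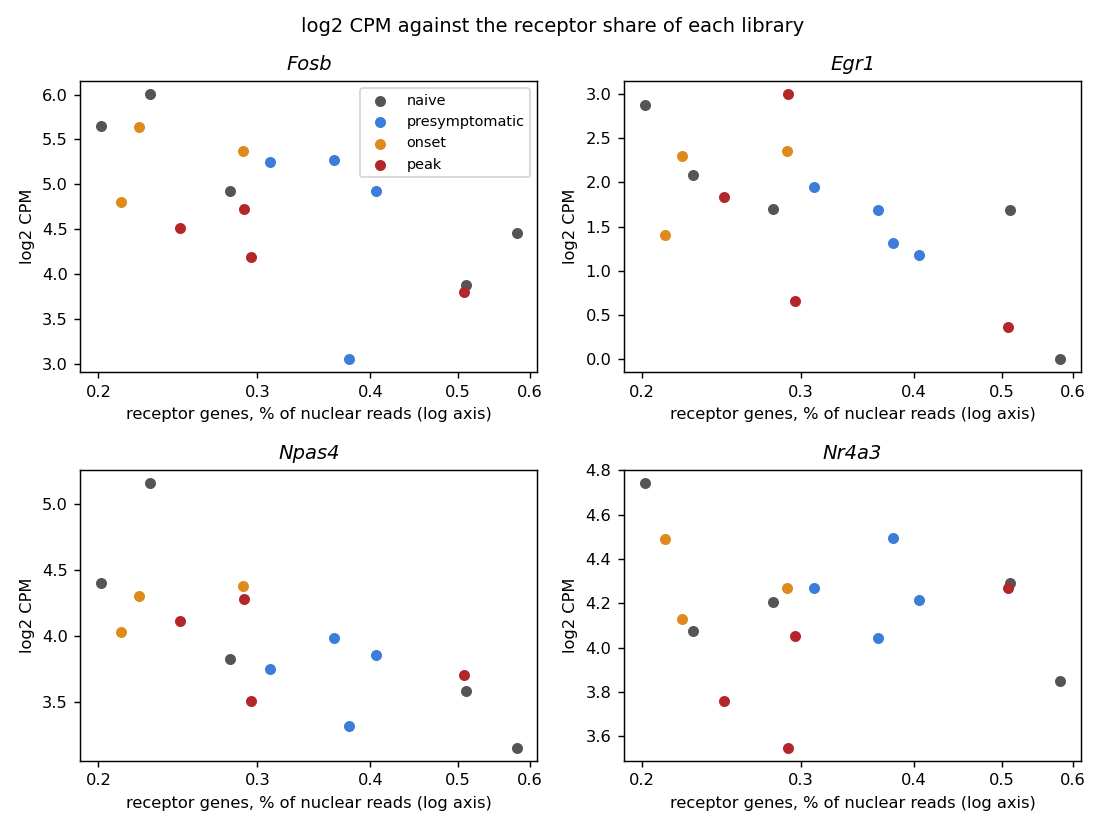
Log2 CPM of Fosb, Egr1, Npas4 and Nr4a3 against the receptor share of nuclear reads, in percent on a log axis, for the 16 libraries coloured by stage. The 3 libraries with shares of 0.508% to 0.580% had 13.8 to 21.8 CPM of Fosb, in the lower part of its range.

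With the share as a covariate the medians of the members between stages lay closer to 0, at 0.01 in peak against presymptomatic and -0.01 in peak against onset. The median in onset against presymptomatic was -0.02 with it and 0.48 without it, with 3 and 8 of 9 members higher. Npas4 in that comparison had 0.04, Nr4a1 0.60, and in peak against onset Fosb had -0.59 and Egr2 -0.74. In onset against naive the median turned to -0.15 with the covariate, with 3 of 9 higher, against 0.13 without it, with 8 of 9 higher. Among the other lists, the slope was called lower for 3 of 11 family genes, 6 of 24 upstream regulators, 6 of 24 rapid response genes, 0 of 7 heat shock genes and 0 of 24 ganglion cell markers, against 6.74% of all genes. It was called higher for 0 genes of these 5 lists, against 11.1% of all genes. Marker lists of other cell types also held calls. Called lower were 2 of 17 rod, 3 of 16 amacrine and bipolar, 2 of 14 Muller glia and astrocyte and 1 of 11 microglia and macrophage markers. Called higher were 2, 1, 0 and 0 of them in the same order. Srf, which encodes serum response factor, had -0.87 ± 0.19 (adjusted p = 0.00136 by edgeR), Crtc3, a CREB coactivator gene, had -0.68 ± 0.15 (adjusted p = 0.000905 by edgeR) and Dusp1, a phosphatase that ends MAP kinase signals, had -1.49 ± 0.41 (adjusted p = 0.00899 by edgeR). Of 21 effector genes 1 was called lower and 3 higher, among them Ptgs2, which encodes cyclooxygenase-2, at 1.19 ± 0.29 (adjusted p = 0.00339 by edgeR).

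As a description of how the members varied among themselves, correlations of log2 CPM within stages over the 16 libraries were above 0 for 26 of the 36 pairs of members, with a mean r of 0.277, against 0.00303 over all pairs of tested genes. The highest were Fosb with Npas4 (r = 0.783), Egr1 with Npas4 (r = 0.699) and Fos with Npas4 (r = 0.686), and the lowest Fosb with Nr4a3 (r = -0.285). Each of the 10 pairs below 0 included Arc or Nr4a3. The pairs share libraries, depth and the receptor share. The mean over all pairs takes in genes of low count and genes with slopes of either sign on that share. It was not matched to the members in either respect, so it is no baseline for their likeness. Of 23347 other genes compared, those most like the members' mean over the 16 libraries were Gm32316 (r = 0.928), Gm26588 (r = 0.920), Gm39191 (r = 0.919), Cdc42ep4 (r = 0.914) and Cdc42bpb (r = 0.914).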

How the data were processed

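ATAC-seq had been run on 16 libraries of sorted retinal ganglion cells. Per the submitters' processing notes, the tools were cutadapt, HISAT2 and HTSeq; for their versions, the build, duplicate or multiply aligned reads and any shift of read ends, nothing is given in the sources used here. Unscaled counts were deposited per gene interval and library. The deposited RPKM values scale each count by a library total and an interval length. The RPKM values served to find that length, with a largest relative deviation of 9.15e-14. Every column was mapped to a library by name, and 0 columns were left unmapped. No 2 libraries were identical.

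The test was the quasi-likelihood test of edgeR 4.0.16 (R 4.3.3; limma 3.58.1) on the counts, with filterByExpr (minimum count 10, minimum total 15), TMM scaling and a mean per stage fitted to all 16 libraries, after a check on simulated data. The threshold was an adjusted p of 0.05, and the SE is derived from the F statistic. Log2 CPM used a prior count of 2. The slope fit added the log2 receptor share to the stage means. DESeq2 1.42.0 and voom with quality weights were among the alternatives. Exact tests used scipy 1.17.1. Read density was given for intervals of at least 500 bp. The 13 mitochondrial intervals stayed in the tests.

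The members and lists were chosen with earlier results of these data known. All members are named; of each other list, at most the 2 genes with the smallest p and the 1 with the largest change in a comparison. Same-numbered libraries of different stages did not deviate together, so the numbers were not taken to pair them.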

Additional observations from a re-analysis of the deposited data

Results flagged for a closer look

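Within each stage of 4 or 5 libraries, each member was checked for a library that stood far from the others relative to the range of its group; chance gives about 1 flag in 20 groups, and 27 groups were looked at, of which 2 were flagged. Fosb in presymptomatic replicate 4 had a log2 CPM of 3.05 (8.15 CPM, from 35 reads), and the nearest of the other presymptomatic libraries had 4.92, a gap of 0.843 of the range. Without that library Fosb averaged 35.5 ± 4.63 CPM in presymptomatic (SD, n = 3). It was also the presymptomatic library with the fewest nuclear reads, 2.23 M. Egr3 in naive replicate 3 had a log2 CPM of -1.69 (0.153 CPM), against 0.287 in the nearest naive library, a gap of 0.818 of the range. That library had the highest receptor share of the 16, at 0.580%, and its part in the value was not tested.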

How the results depend on the processing

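Over all alternatives, 625 member values in stage comparisons were recomputed, 0 were called and the smallest adjusted p was 0.135 (Fosb, peak against onset, library totals). Signs of small changes moved, none of them called, and the cause was not tested. With the replicate block the members' median was -0.0093 in presymptomatic and -0.059 at peak against naive, each with 4 of 9 higher, and at onset it was -0.14, with 3 of 9 higher, once the 3 libraries highest in receptor share were dropped. Leaving out each library in turn gave medians of -0.62 to -0.061 in presymptomatic, -0.05 to 0.35 at onset, -0.45 to -0.081 at peak, 0.22 to 0.58 in onset against presymptomatic, -0.21 to 0.43 in peak against presymptomatic and -0.57 to -0.17 in peak against onset. With library totals, which shift the median of all genes by 0.60 at onset against naive, the members' median was 0.66 there and -0.95 in peak against onset, and Egr2 and Nr4a3 in presymptomatic had 0.21 and 0.27 and Fos at onset 0.058. With the receptor share as covariate, the members' median in onset against presymptomatic was -0.019, Nr4a3 in presymptomatic had 0.013, and at onset Fosb had -0.15, Egr1 -0.16, Egr3 -0.25, Nr4a3 -0.0054 and Npas4 -0.17. Without the 3 libraries of highest share, these 5 had -0.28, -0.27, -0.14, -0.072 and -0.32. With the replicate block, which rests on numbers that were not shown to pair libraries (of 21 same-numbered pairs, 6 had r over 0.1, and 2 of 16 libraries correlated best with their own number), Fosb, Egr1 and Egr2 in presymptomatic had 0.0104, 0.049 and 0.0397, Fos, Nr4a1 and Npas4 at peak had 0.051, 0.066 and 0.14, and 1 gene was called in onset against presymptomatic. With voom, Egr2 in presymptomatic had 0.0296 and Egr3, Nr4a1 and Nr4a3 at onset -0.067, -0.11 and -0.064. Libraries 16 and 17 by label number were presymptomatic replicate 4 and onset replicate 3, out of stage order. Without these libraries, Egr2 in presymptomatic had 0.064 and Egr3 and Nr4a3 at onset -0.25 and -0.065. Nr4a3 in presymptomatic had 0.0032 with DESeq2 size factors, 0.0087 with a minimum count of 30 and 0.0021 without mitochondrial genes. Nr4a1 at peak had 0.0054, 0.0086 and 0.0067 with DESeq2 size factors, a minimum count of 30 and DESeq2. DESeq2 called 1 gene at peak against naive, 1 in onset against presymptomatic, 5 in peak against onset and 5 over any stage; library totals called 2 over any stage; and without the 3 libraries 1 was called in peak against presymptomatic and 1 over any stage. Leaving out each library in turn gave, in presymptomatic, -0.64 to 0.034 for Egr1, -0.18 to 0.065 for Egr2 and -0.095 to 0.15 for Nr4a3; at onset, -0.61 to 0.0904 for Fos, -0.071 to 0.43 for Fosb, -0.13 to 0.55 for Egr1, -0.25 to 0.31 for Egr3, -0.067 to 0.19 for Nr4a3 and -0.14 to 0.43 for Npas4; and at peak, -0.55 to 0.15 for Fos, -0.99 to 0.32 for Egr1, -0.64 to 0.10 for Egr3, -0.30 to 0.17 for Nr4a1 and -0.45 to 0.11 for Npas4. The slope on the receptor share was called for 5341 genes, for 2158 with the share of all reads, for 0 without the 3 libraries and for 3090 to 5626 without each library in turn (3557 without peak replicate 3, 3090 without naive replicate 3). Among members the slope changed sign for Egr2 with DESeq2 size factors (0.0066), without mitochondrial genes (0.0045) and over single libraries left out (-0.25 to 0.088), for Nr4a3 with the share of all reads (0.095) and over single libraries (-0.28 to 0.10), and for Nr4a1 and Arc without the 3 libraries (0.41 and 0.63); with library totals Nr4a1 was called, at -0.90.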
